A study of Arabidopsis thaliana with 6 samples.

Results

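BCAT4 (AT3G19710), AT2G31790 (known as UGT74C1) and UGT74B1 (AT1G24100) are genes of glucosinolate synthesis. They were chosen by name, with earlier results of these data known. Every probe set that the platform annotation gives to one of them alone was taken. Each gene had 1 probe set, so that the 3 genes stand for 3 of the 13356 genes with a probe set of their own. Levels come from 6 Affymetrix ATH1 arrays, 1 for each RNA sample, from shoots of 2-week-old Col-0 seedlings. All seedlings, controls included, were of MYB112-IOE line 1, a single line in which β-estradiol switches on overexpression of the R2R3-MYB transcription factor MYB112. The groups were 10 µM estradiol for 3 h (1 array), 10 µM estradiol for 5 h (2 arrays), DMSO for 3 h (1 array) and DMSO for 5 h (2 arrays). The study asked which genes respond early to MYB112. Plants that lack the construct were not analysed here, so that an effect of estradiol and an effect of MYB112 cannot be told apart.

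Glucosinolates are sulphur-containing thioglucosides of the cabbage order, and myrosinases cleave them to toxic products when tissue is wounded. The aliphatic ones are made from methionine, whose side chain is first lengthened in a cycle that BCAT4 opens by turning methionine into its 2-oxo acid. The elongated amino acids, as well as tryptophan and phenylalanine, are then converted through oximes to thiohydroximates, to which UDP-glucosyltransferases of the UGT74 family add glucose on sulphur. UGT74B1 carries out this S-glucosylation for several classes of glucosinolate and AT2G31790 is linked to the methionine-derived ones, after which sulphotransferases add the final sulphate.

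All values below are on the log2 scale of the deposited table, and differences are estradiol minus DMSO. The 3 pairs of arrays of the same time and replicate number each had a lowest value of their own (2.1, 2.14 and 2.16), and arrays correlated at 0.994 to 0.998 within pairs and at 0.957 to 0.968 between pairs. The pairs were therefore read as normalized separately, which no source used here states. Any order of arrays across pairs, and any limma fit without a pair term, also holds whatever differs between pairs. Over the 14520 probe sets tested over both times, the differences had a median of −0.01 (SD 0.26 over probe sets) at 3 h, 0.00 (SD 0.33) in replicate 1 of 5 h and −0.04 (SD 0.41) in replicate 2 of 5 h. The shoot markers RCA and LHCB4.1 were at 12.72 to 13.84 on all arrays. The root hair genes EXPA7 and EXPA18 were at 2.1 to 2.96, under the filter of 3.56, and PYK10, the third root marker with a probe set of its own, was at 11.32 to 12.40 on all arrays.

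At 3 h the 3 genes had nearly the same values with estradiol as with DMSO. At 5 h all of them had lower values with estradiol than with DMSO in both replicates, with 76.3% to 87.1% of the DMSO signal in replicate 1 and 46.3% to 64.6% in replicate 2. None of these differences passed a test over all probe sets. As the samples were whole shoots, fewer cells that express a gene and less of its RNA per cell cannot be told apart.

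BCAT4 was at 10.61 with estradiol against 10.65 with DMSO at 3 h. At 5 h it was at 10.09 with estradiol and 10.39 with DMSO in replicate 1, and at 9.64 with estradiol and 10.75 with DMSO in replicate 2. Its differences were thus −0.04, −0.30 and −1.11, and in replicate 2 of 5 h its signal with estradiol was 46.3% of that with DMSO. Both estradiol arrays of 5 h lay below both DMSO arrays, an order that spans 2 pairs. The wide gap was in replicate 2.

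AT2G31790 was at 10.03 with estradiol against 10.04 with DMSO at 3 h. At 5 h it was at 9.53 with estradiol and 9.92 with DMSO in replicate 1, and at 8.93 with estradiol and 9.64 with DMSO in replicate 2. The differences of −0.01, −0.39 and −0.71 correspond to 99.3%, 76.3% and 61.1% of the DMSO signal. Its 5 h groups did not overlap across the 2 pairs, and the 2 replicates of 5 h were closer to each other in their difference than those of BCAT4.

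UGT74B1 was at 10.70 with estradiol against 10.71 with DMSO at 3 h. At 5 h it was at 10.00 with estradiol and 10.20 with DMSO in replicate 1, and at 9.44 with estradiol and 10.07 with DMSO in replicate 2. The differences were −0.01, −0.20 and −0.63, the last being 64.6% of the DMSO signal. Its 5 h groups did not overlap across the 2 pairs either. Probe sets with both estradiol arrays of 5 h below both DMSO arrays were 1383 of 14078, or 9.82%, against 3 of these 3 genes.

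**Figure D1:**
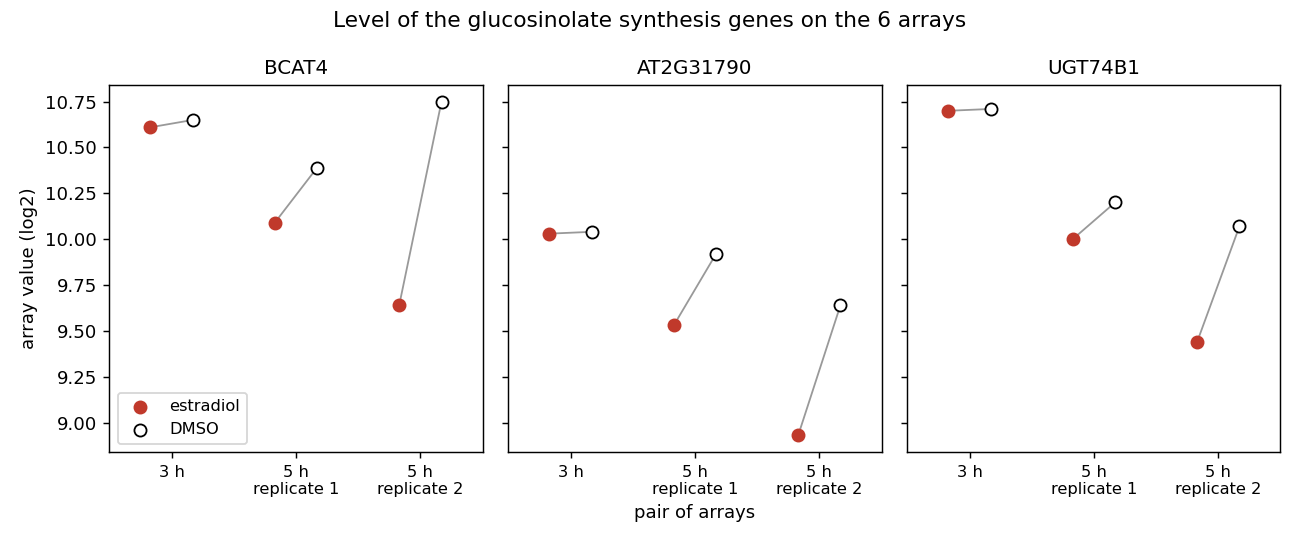
Array values (log2, vertical axis) of BCAT4, AT2G31790 and UGT74B1 in the 3 pairs of arrays (horizontal axis), with estradiol as filled and DMSO as open circles and a line joining the arrays of a pair. The circles of the 3 h pair lie at nearly the same height for each gene, and the gap is widest in replicate 2 of 5 h, with a difference of −1.11 for BCAT4.

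Set against all probe sets, the 3 genes lay near the centre at 3 h and below it at 5 h, further out in replicate 2. As earlier results were known when the genes were chosen, these shares are a description and not a test. At 3 h, 44% of the 14520 probe sets had a difference at or below that of BCAT4 and 50.1% one at or below that of either glucosyltransferase gene. In replicate 1 of 5 h the shares at or below the gene's difference were 9.7% for BCAT4, 6.26% for AT2G31790 and 15.9% for UGT74B1. In replicate 2 of 5 h they were 1.44% for BCAT4, 4.7% for AT2G31790 and 6.02% for UGT74B1.

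The order of the 3 genes was not the same in the replicates of 5 h. AT2G31790 had the lowest difference in replicate 1 and BCAT4 in replicate 2, while UGT74B1 had the smallest difference of the 3 in both. All 3 genes were below 0 in all 3 pairs, which 2483 probe sets (17.1%) were as well, while 1102 probe sets (7.59%) were above 0 at 3 h and below 0 in both pairs of 5 h. At 3 h this sign carries little weight: after quantile normalization the 3 h differences were 0.01 for BCAT4, 0.02 for AT2G31790 and 0.05 for UGT74B1, and after centring each array on its median they were −0.03, 0.00 and 0.00 in that order. The 5 h differences kept their sign under both scalings, at −1.07 and −1.03 for BCAT4 in replicate 2, for example. By a cut of 2-fold, BCAT4 was lower in replicate 2 of 5 h, as were 288 probe sets (1.98%), and neither glucosyltransferase gene was. In replicate 1 and at 3 h 0 of the 3 genes were, against 0.606% and 0.461% of probe sets. By a cut of 1.5-fold, all 3 genes were lower in replicate 2 of 5 h, where 6.87% of probe sets were, and 0 of the 3 in replicate 1 (2.42% of probe sets) or at 3 h (2.07%).

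**Figure D2:**
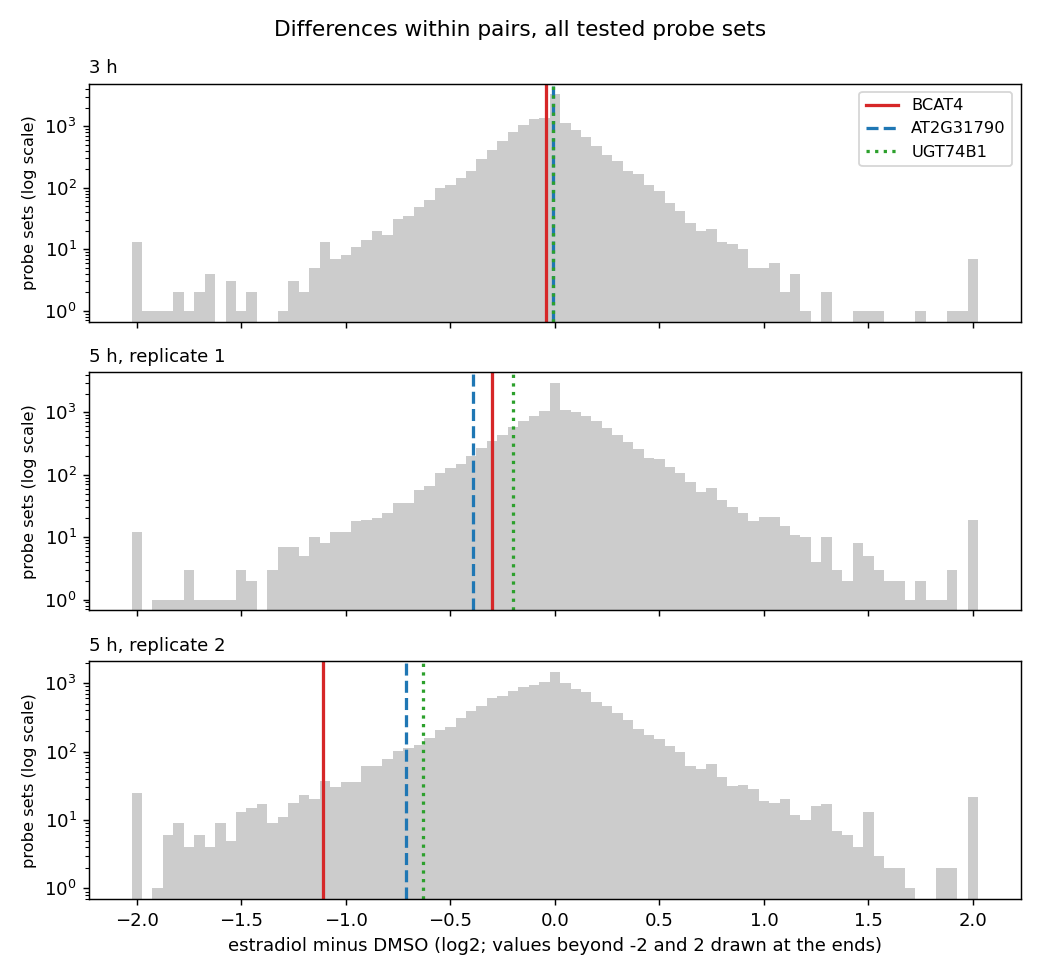
Number of probe sets (vertical axis, log scale) by estradiol minus DMSO difference (log2, horizontal axis) among the 14520 tested, in 1 panel for each pair of arrays, with the 3 genes as vertical lines. The lines stand near the centre at 3 h and to its left in both replicates of 5 h. The furthest out is that of BCAT4 in replicate 2, at −1.11.

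In the comparison of estradiol with DMSO at 5 h, tested with limma on 4 arrays, BCAT4 differed by −0.71 (SE 0.23, 95% interval −1.34 to −0.07), AT2G31790 by −0.55 (SE 0.26, −1.26 to 0.16) and UGT74B1 by −0.42 (SE 0.24, −1.05 to 0.22). The limma adjusted p was 1 for each of the 3 genes (n = 2 arrays per treatment), and 0.0071% of the 14078 probe sets passed, which is 1 probe set. Unadjusted, the limma p was 0.0358 for BCAT4, 0.10 for AT2G31790 and 0.148 for UGT74B1, and 1.15% of probe sets had one under 0.05. With the pair as a block, which takes up differences in level between pairs, the adjusted p was 0.583 for BCAT4, 0.58 for AT2G31790 and 0.582 for UGT74B1, and 0 probe sets passed (0%), with 8.29% at an unadjusted p under 0.05.

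The block moved the genes in different ways, and it left 1 residual degree of freedom per probe set, against 2 without it. The interval of AT2G31790 narrowed to −0.96 to −0.14 with an unadjusted limma p of 0.0253; its differences in the 2 replicates were 0.32 apart. That of BCAT4 widened to −1.61 to 0.20 (unadjusted p = 0.0847 by limma), and its differences were 0.81 apart. UGT74B1 had an interval of −0.93 to 0.10 (unadjusted p = 0.0782 by limma). The 5 h values without the block changed when single arrays were left out. Such fits compare arrays across pairs, so they also hold differences in level between pairs. Without the estradiol array of replicate 2 the differences were −0.48 for BCAT4, −0.25 for AT2G31790 and −0.13 for UGT74B1. Without that of replicate 1 they were −0.93, −0.85 and −0.70 in the same order, against −1.11, −0.71 and −0.63 within the pair of replicate 2. Without the DMSO array of replicate 2 they were −0.52, −0.69 and −0.48. Without that of replicate 1 they were −0.88, −0.41 and −0.35.

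Over both times, with time as a covariate and all 6 arrays, the differences were smaller, the 3 h pair adding values near 0. BCAT4 differed by −0.48 (SE 0.22), AT2G31790 by −0.37 (SE 0.22) and UGT74B1 by −0.28 (SE 0.19), with a limma adjusted p of 1 for each (n = 3 arrays per treatment). Of the 14520 probe sets 0.00689% passed, again 1 probe set, and 1.9% had an unadjusted p under 0.05, as 0 of the 3 genes had. With the pair as a block the limma adjusted p was 0.542 for BCAT4, 0.519 for AT2G31790 and 0.545 for UGT74B1, and 0% passed, with 9.75% at an unadjusted p under 0.05 and 0 of the 3 genes among them. Without the pair of replicate 2 of 5 h, the blocked differences were −0.17 for BCAT4, −0.20 for AT2G31790 and −0.11 for UGT74B1.

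Whether the response at 5 h differed from that at 3 h was tested as an interaction. The effect at 5 h minus that at 3 h was −0.67 for BCAT4 (95% interval −1.78 to 0.45), −0.54 for AT2G31790 (−1.80 to 0.72) and −0.41 for UGT74B1 (−1.52 to 0.71). The limma adjusted p was 1 for each, and 0% of the 14520 probe sets passed, with 0.172% at an unadjusted p under 0.05 (2.93% with the block, where the adjusted p was 0.988 for each gene by limma). Without the estradiol array of replicate 2 of 5 h these values were −0.44 for BCAT4, −0.24 for AT2G31790 and −0.12 for UGT74B1. Without that of replicate 1 they were −0.89, −0.84 and −0.68 in the same order. Both of these fits had no pair term, so they also hold differences in level between pairs. The intervals include both no change with time and a decline of more than 2-fold, so that a difference in response between 3 h and 5 h was not shown. The 3 h groups had no spread of their own and were taken to vary as the 5 h groups did.

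**Figure D3:**
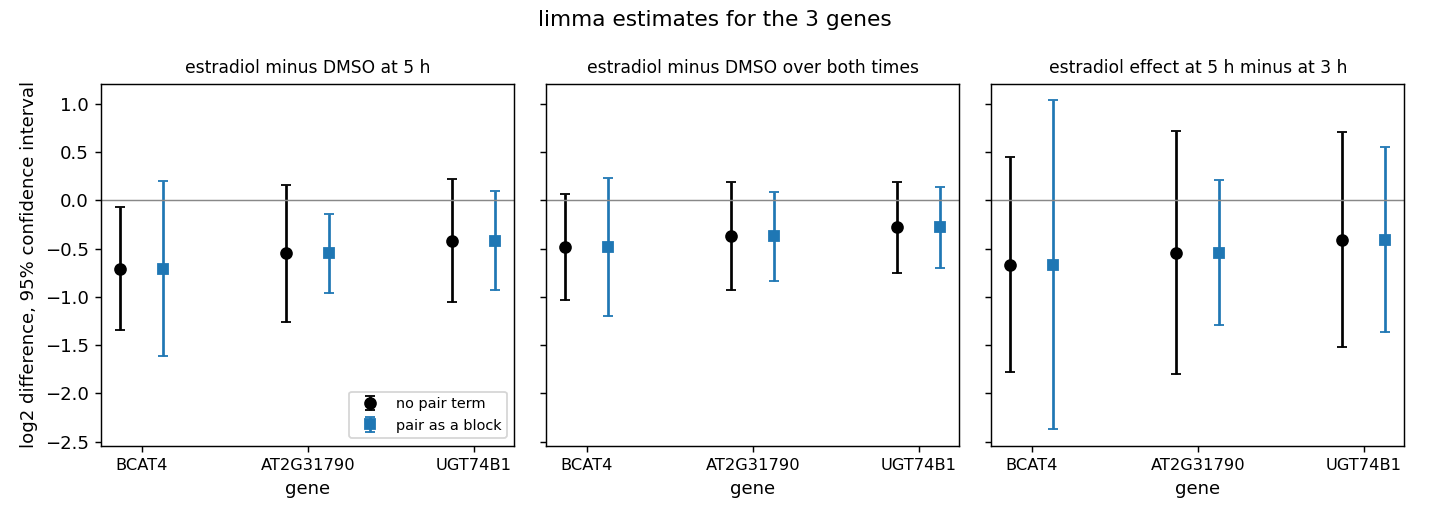
Estimated log2 differences (vertical axis) with 95% confidence intervals for the 3 genes (horizontal axis), from limma fits without a pair term (black circles) and with the pair as a block (blue squares), in 1 panel per comparison. All estimates are below 0, from −0.71 to −0.28, and of the intervals only that of BCAT4 without the block and that of AT2G31790 with the block, both at 5 h, lie wholly below 0.

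Those other genes of the pathway that could be tested had differences of both signs at 3 h and in replicate 1 of 5 h. In replicate 2 of 5 h they had mostly negative ones. A list of 89 glucosinolate genes covered regulators, side chain elongation, the core structure, side chain modification, transport, breakdown and the supply of sulphur and amino acids. Of these, 15 had a probe set annotated to them alone, and 13 of the 15 were above the filter, the 3 genes included. The annotation used here gave no gene to 8730 of 22746 probe sets, so the other list genes may be on the array unnamed. Side chain elongation had 1 of 11 entries named and the core structure 4 of 20. CYP79A2, a cytochrome P450 that starts the core pathway from phenylalanine, and AOP3, a dioxygenase of side chain modification, were at 2.1 to 2.70 on all arrays and were not tested. Of the other 10 genes, 0 passed in any comparison with limma, with or without the block. Without the block 0 of them had an unadjusted p under 0.05 at 5 h or over both times, and with it 2 of the 10 had one at 5 h, where 8.29% of all probe sets did, and 1 of the 10 over both times, where 9.75% did. Their median difference was 0.04 at 3 h, 0.11 in replicate 1 of 5 h and −0.40 in replicate 2 of 5 h, against −0.01, 0.00 and −0.04 for all probe sets in that order. In replicate 2 of 5 h, 8 of the 10 were below 0, as were 55.3% of all probe sets, and in replicate 1 of 5 h 4 were, against 39.3%.

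Beside the 3 genes, GSTU20, a tau-class glutathione transferase linked to the glutathione conjugation step of the aliphatic pathway, differed by 0.01, −0.34 and −0.35 in the 3 h pair and in replicates 1 and 2 of 5 h. APS3, an ATP sulphurylase that activates sulphate, was at 8.54 with estradiol against 8.88 with DMSO at 3 h, at 7.43 against 8.17 in replicate 1 of 5 h and at 6.57 against 7.42 in replicate 2. Its differences of −0.34, −0.74 and −0.85 averaged −0.64 (SD 0.27, n = 3 pairs), and it did not pass over both times (limma adjusted p = 1, and 0.50 with the block). These were the 2 genes with an unadjusted p under 0.05 in the blocked fit at 5 h. AT1G04770, entered among the regulators of the list as SDI2, differed by −0.53, −0.02 and −1.29 in the 3 pairs. APS3 and AT1G04770 were the 2 of the 10 genes that were below 0 in all 3 pairs.

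The rest of the 10 genes had values of both signs. The transcription factor genes MYC3 and MYC4, whose products act with MYB factors on glucosinolate genes, differed by 0.00, 0.22 and 0.34 and by 0.19, 0.40 and −0.02. The transporter gene GTR1 differed by 0.43, 0.47 and 0.04, the only one of the 10 above 0 in all 3 pairs, and GTR2 by 0.06, 0.20 and −0.51. AOP1, a dioxygenase gene related to AOP3, differed by 0.23, 0.02 and −0.60, and AT2G25450 by 0.03, −0.10 and −0.44. PYK10, a β-glucosidase of endoplasmic reticulum bodies that is abundant in roots and was also on the root list, differed by 0.52, 0.38 and −0.12.

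**Figure D4:**
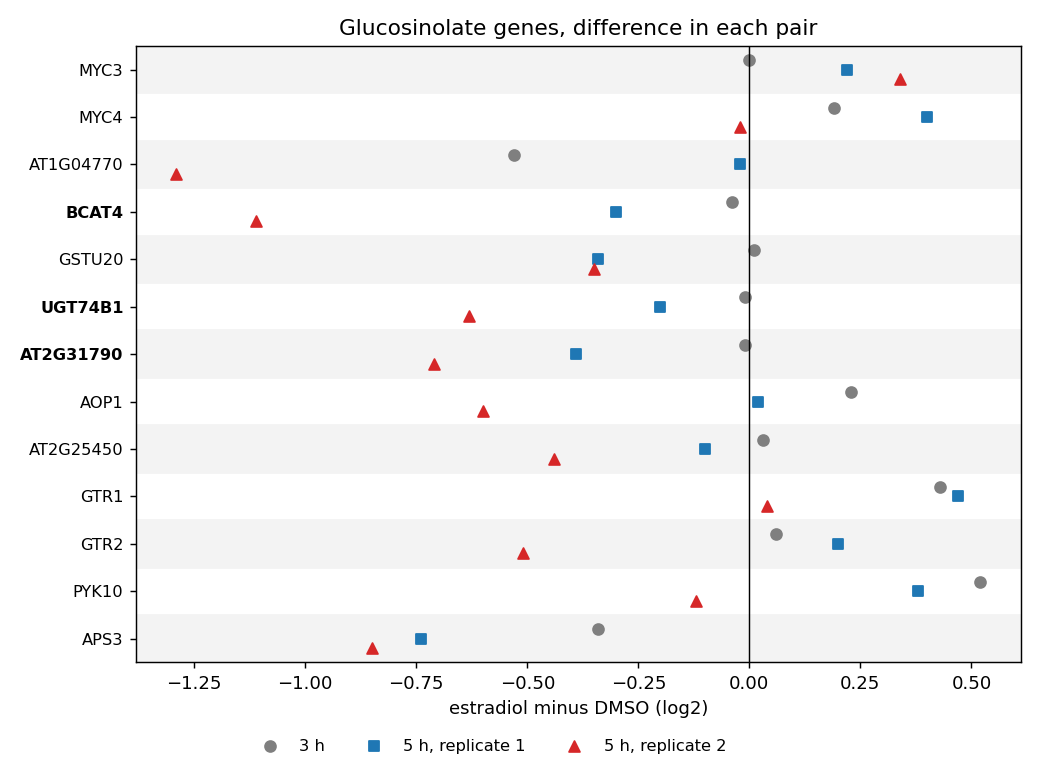
Estradiol minus DMSO differences (log2, horizontal axis) of the 13 glucosinolate genes above the filter (1 row each, the 3 genes described here in bold), with 1 symbol for each pair of arrays. In replicate 2 of 5 h 11 of the 13 genes lie below 0, and in the 3 h pair 5 do.

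Relatives of the 3 genes by sequence family were looked at beside them. The aminotransferase gene ATBCAT-5 differed by −0.22, 0.06 and −0.30 in the 3 pairs, and AT1G50110 by 0.00, −0.25 and −0.14. UGT74D1, which lies 3 protein-coding genes away from AT2G31790 on chromosome 2 in the RefSeq annotation of TAIR10.1, differed by −0.26, 0.08 and −0.33. The sign of its 0.08 in replicate 1 of 5 h carries little weight, as probe sets had an SD of 0.33 there. After quantile normalization this value was 0.09, and with arrays centred on their medians it was 0.02. UGT74F1 was at 2.16 to 2.76 and was not tested. A set of UGT genes was made of those whose name in the annotation starts with UGT, with AT2G31790 added by its locus. Any UGT gene under another name was left out. Among the 27 of this set above the filter, AT2G31790 ranked 5 from the lowest in replicate 1 of 5 h and 4 in replicate 2. UGT74B1 ranked 6 and 7, while the median of the 27 was 0.19 in replicate 1 and −0.04 in replicate 2. At 3 h both genes ranked 18 from the lowest, above the median of −0.11 for the 27.

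Likeness between genes was measured as the Euclidean distance between their 3 pair differences, over 3 pairs, among the 14520 probe sets. The 3 named genes nearest to BCAT4 were AT5G16610 (distance 0.0806), AT5G01790 (0.102) and AT5G63100 (0.103). Nearest to AT2G31790 were AT2G32970 (0.064), AT1G15410 (0.0787) and VPS9B (0.09), and nearest to UGT74B1 were AT3G07400 (0.0374), AT4G33490 (0.052) and AT4G18930 (0.0574). The glucosinolate genes were further from each other than from these. AT2G31790 and UGT74B1 were 0.206 apart, with 84 probe sets nearer to AT2G31790 and 229 nearer to UGT74B1. BCAT4 was 0.411 from AT2G31790 and 0.491 from UGT74B1, with 193 and 324 probe sets nearer to it. In turn, 749 probe sets were nearer to AT2G31790 than BCAT4 was, and 2905 were nearer to UGT74B1. With 3 differences per gene, 84 to 2905 of the 14520 probe sets were thus nearer to a gene than another of the 3 was.

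FMA, a transcription factor gene of guard cells and of the myrosin cells that store myrosinase, was the one named marker of myrosin cells of the 3 listed. It was at 6.08 with estradiol against 6.01 with DMSO at 3 h, at 6.12 against 6.50 in replicate 1 of 5 h, and at 3.41, under the filter, against 4.58 in replicate 2. Its differences of 0.07, −0.38 and −1.17 ran in the same direction at 5 h as those of the 3 genes, and the part of myrosin cells in the result was not tested. TGG1 and TGG2, the defining myrosinase genes, were not analysed here.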

How the data were processed

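The table that the authors deposited holds log2 values for 6 shoot samples (3 estradiol, 3 DMSO), normalized before deposit; the submitters' processing notes name GCRMA and RMA with neither version nor role. The base is not stated and was read as 2 from values of 2.1 to 15.35. Of 22810 probe sets, 64 controls were left out, and 13513 of the other 22746 had 1 gene in the platform annotation (13436 matched to RefSeq TAIR10.1), 503 several and 8730 are unnamed here. The values do not show signal over background, and precision is limited by the number of arrays. The labels give no flask for a replicate, and the spread that p-values rest on may be technical.

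A probe set was tested if 2 or more arrays of the fit were at or above 3.56, the 40th percentile of all values. The test was limma 3.58.1 in R 4.3.3 (lmFit and eBayes with trend, two-sided), with Benjamini-Hochberg adjustment over all probe sets and a threshold of 0.05. Its estimates were checked on data made with known differences and independent noise. The check set no condition on p-values or calls. Within the 3 pairs, the deviations from the mean of each treatment over both times had correlations of 0.943, 0.923 and 0.906. These deviations also hold the difference between times and any separate normalization of pairs. They thus cannot show that replicate numbers mark biological pairs. The numbers were taken to pair the samples, and results with the replicate block stand beside those without it. Tried as well were other scalings, filters, no trend and leaving out arrays. The genes and lists were chosen with earlier results of these data known. The genes named are the 3 genes, all list genes with a probe set of their own, and the 3 named genes nearest to each of the 3. APS3, GSTU20, GTR1 and AT1G04770 were singled out after their values were seen.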

Additional observations from a re-analysis of the deposited data

Results flagged for a closer look

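Of the 19 listed genes above the filter, 4 had a difference above 0 at 3 h and below 0 in both replicates of 5 h, a pattern that 1102 of the 14520 probe sets (7.59%) had as well. The effect at 5 h minus that at 3 h was −0.36 for GSTU20, −0.30 for AT2G25450, −0.20 for LHCB4.1 and −0.85 for FMA, and limma's interaction test gave an adjusted p of 1 for each. At 3 h these genes were at 0.01, 0.03, 0.04 and 0.07, where probe sets had an SD of 0.26. In replicate 1 of 5 h LHCB4.1 was at −0.01. For BCAT4, AT2G31790 and UGT74B1 all 3 pairs were below 0.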

How the results depend on the processing

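The differences of BCAT4, AT2G31790 and UGT74B1 stayed below 0 and did not pass under any of the 10 alternatives at 5 h, the 15 over both times and the 9 for the change with time. At 5 h they ran from −0.93 to −0.48 for BCAT4, from −0.85 to −0.25 for AT2G31790 and from −0.70 to −0.13 for UGT74B1, and over both times from −0.71 to −0.17, from −0.55 to −0.15 and from −0.42 to −0.08. For the change with time they ran from −0.89 to −0.44, from −0.84 to −0.24 and from −0.68 to −0.12. The paired fits with the replicate block changed no call of these genes. The single probe set called at 5 h became 0 with the replicate block, after quantile normalization, with arrays centred on their medians, with no filter on low values and with no mean-variance trend, and 0 to 1 when 1 array was left out. The one called over both times became 0 with the replicate block (also without any single pair), after quantile normalization, with no filter and with no trend, and 0 to 1 when 1 array was left out. The cause was not tested. The change with time had 0 calls throughout. When 1 array of 5 h was left out, AT1G04770 at 5 h ran from −1.33 to 0.02. The change with time then ran from −0.58 to 0.18 for LHCB4.1 and from −2.20 to 0.51 for FMA. Fits with 1 array left out had no pair term, so all ranges that include them also hold differences in level between pairs. Within the 2 pairs of 5 h, AT1G04770 differed by −0.02 and −1.29, LHCB4.1 by −0.01 and −0.31 and FMA by −0.38 and −1.17.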
